A study of Mus musculus with 6 samples.

Results

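The genes described here are Hcn2, Hcn3 and Hcn4, which encode pore-forming subunits of the hyperpolarization-activated, cyclic nucleotide-gated (HCN) channels. They were chosen by name, and their values were read from the array probe sets that the platform annotation assigns to these genes alone. Of the 3 genes, 2 were measured, Hcn2 and Hcn3, each by 1 probe set among 45101 on the array, out of 18194 genes with such a probe set. Hcn4 had no matched probe set and was not analysed here. RNA came from 3 auditory brainstem nuclei of male C57BL/6J mice with no genetic change or treatment named in the labels. VCN is the ventral part of the cochlear nucleus. LSO is the lateral nucleus of the superior olive, and MNTB the nucleus of the trapezoid body that lies medially. Each was sampled at postnatal day 3 (P3) and postnatal day 14 (P14). Each of the 6 arrays held 1 pool of dissected tissue, from 6 animals at P3 and from 3 animals at P14. No pool was repeated, so the p-values below measure how well an age change repeated over nuclei, or a nucleus difference over ages, and not the spread between animals.

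HCN channels open when the membrane becomes more negative, and the inward current they pass, known as Ih, pulls the membrane back towards threshold. Cyclic AMP binds to the channel's intracellular end and shifts its opening to less negative voltages, strongly in channels made of Hcn2 or Hcn4 and little in those made of Hcn3. In neurons of the auditory brainstem, Ih adds to the conductance at rest, which shortens the membrane time constant and helps to set the resting potential. Between P3 and P14 mice begin to hear.

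Hcn2 rose with age in all 3 nuclei, and Hcn3 fell in all 3. Values are deposited RMA log2 units, in which a step of 1 is a doubling, and values of different probe sets do not rank genes by abundance. At P3 Hcn2 read 8.06 in VCN, 8.24 in LSO and 8.15 in MNTB. Its P14 readings were 8.67 for VCN, 8.60 for LSO and 8.75 for MNTB. The ages did not overlap: the lowest P14 value lay 0.36 above the highest P3 value, and both came from LSO. Non-overlap with P14 higher was found for 30.3% of the 12958 genes tested.

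For Hcn3 the P3 readings were 6.02 for VCN, 6.50 for LSO and 6.77 for MNTB. At P14 they were 5.54 for VCN, 5.59 for LSO and 5.72 for MNTB. The ages did not overlap here either, with a gap of 0.30 between VCN at P3 and MNTB at P14. Non-overlap with P14 lower was found for 23.3% of the genes tested. Control probe sets for the bacterial trpn gene, which is not spiked, here read 2.84 to 4.42. Even the lowest Hcn3 value, in VCN at P14, lay 1.13 log2 units above the highest of them. Yet at P14 Hcn3 exceeded only 40.6% to 42.7% of the probe sets on each array, against 45.8% to 56.0% at P3. Its VCN value at P14 was also under 5.57, the mean over all arrays that a gene needed to be tested.

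**Figure D1:**
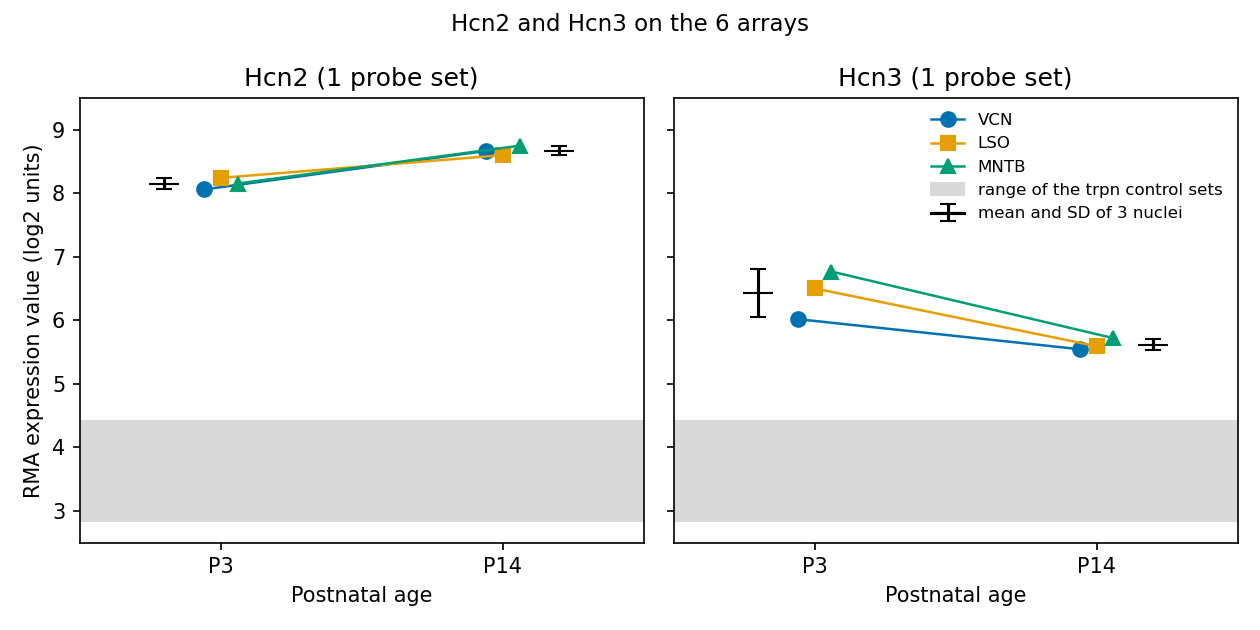
RMA values (log2 units) of Hcn2 and Hcn3 at P3 and P14, 1 point per array with a line joining the ages of a nucleus; black bars give the mean and SD of the 3 nuclei and the grey band the range of the trpn control sets. Hcn2 lies at 8.06 to 8.24 at P3 and 8.60 to 8.75 at P14, while Hcn3 lies at 6.02 to 6.77 at P3 and 5.54 to 5.72 at P14, all above the grey band.

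The age comparison asked whether channel expression changes over the period in which hearing begins. Mean Hcn2 expression was 8.15 ± 0.091 at P3 and 8.67 ± 0.074 at P14 (SD, n = 3 nuclei). The fitted rise was 0.52 log2 units (standard error 0.11, 95% confidence interval 0.25 to 0.79), that is 1.43-fold, and passed the test (limma, adjusted p = 0.0137). Rises in this direction passed for 23.4% of the genes tested. Among the 3029 genes that rose, 2161 did so by more than Hcn2, so its rise was among the smaller ones called.

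Within single nuclei, each a comparison of 1 array with 1 array, the Hcn2 values differed by 0.61 for VCN, 0.36 for LSO and 0.60 for MNTB. LSO, the nucleus with the highest Hcn2 value at P3, had the smallest rise. Age accounted for 93.6% of the variation of Hcn2 between arrays and nucleus for 1.85%. For Hcn3 these shares were 76.4% and 16.6%. Pooled over all genes tested they were 68.8% and 21.9%, a value in which the most variable genes weigh most. The call on Hcn2 was lost without either MNTB array (limma, adjusted p = 0.0836 without that of P3 and 0.0855 without that of P14, against 0.0348 to 0.0375 without 1 of the other 4), with the same direction and a rise of 0.48.

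Mean Hcn3 expression was 6.43 ± 0.38 at P3 and 5.62 ± 0.090 at P14 (SD, n = 3 nuclei). The fitted difference was -0.81 log2 units (standard error 0.16, 95% confidence interval -1.19 to -0.43), a level 1.75-fold higher at P3, and passed the test (limma, adjusted p = 0.00941). Falls passed for 17.7% of the genes tested, and 800 of the 2288 genes that fell did so by more than Hcn3. By size, the fall of Hcn3 stood further out among the falls than the rise of Hcn2 did among the rises.

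By nucleus, Hcn3 had a P14 minus P3 difference of -0.47 for VCN, -0.91 for LSO and -1.05 for MNTB. At P14 all 3 values lay within 0.17 of each other, against a range of 0.75 at P3. A range over nuclei that was smaller at P14 than at P3 was common, at 55.8% of the genes tested. The call on Hcn3 was lost without any 1 of the LSO and MNTB arrays (limma, adjusted p = 0.052 to 0.0544), with a difference of -0.76 or -0.69. Without either VCN array it was -0.98 (limma, adjusted p = 0.00568 and 0.00579).

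**Figure D2:**
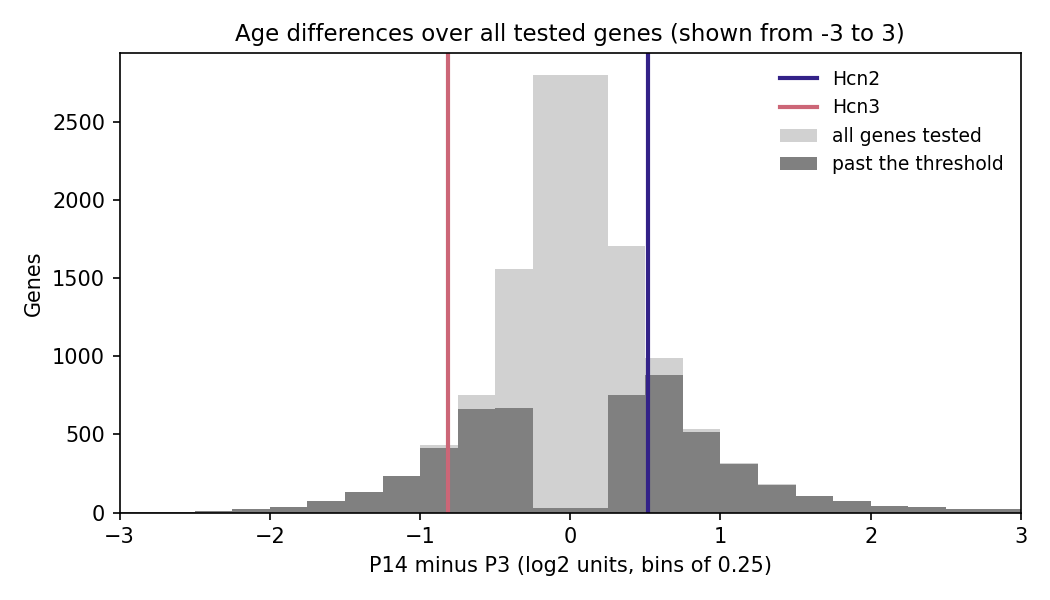
Number of genes by P14 minus P3 difference (log2 units, bins of 0.25), for the 12958 genes tested (light) and those past the limma threshold (dark), with vertical lines at Hcn2 (0.52) and Hcn3 (-0.81). Both lines fall where most genes pass, and Hcn3 lies further from the centre than Hcn2.

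The 2 subunit genes thus changed in opposite directions on the same arrays. The Hcn2 change exceeded the Hcn3 change by 1.08 log2 units in VCN, 1.27 in LSO and 1.64 in MNTB, a mean of 1.33 ± 0.29 (SD, n = 3 nuclei). An exact two-sided sign-flip permutation test over the 3 nuclei gave p = 0.25, the smallest value that 3 nuclei allow. Adding the same amount to every value of an array leaves this within-array difference as it is. Quantile normalization, which is not such a shift, moved both genes when run again, to 0.44 for Hcn2 and -0.76 for Hcn3. The direction and the call of each gene held under the 3 scalings tried besides the deposited one, quantile normalization among them. The differences were 0.43 to 0.54 for Hcn2 and -0.90 to -0.76 for Hcn3. Over all genes the balance was less firm: 3029 rose and 2288 fell as deposited, but 2432 rose and 3004 fell with each array centred on the median of the tested genes.

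The comparison of nuclei asked whether the channel genes differ between the cochlear nucleus and its targets in the superior olive. No difference between nuclei passed the test for either gene (limma, adjusted p = 0.917 to 0.988 for Hcn2 and 0.532 to 0.951 for Hcn3). Few genes passed at all: 0.162% for MNTB against LSO, 0.602% for MNTB against VCN and 0.37% for VCN against LSO. For Hcn2 the order was LSO, MNTB and VCN at P3, from high to low, and MNTB, VCN and LSO at P14. The nuclei spanned 0.18 at P3 and 0.15 at P14, less than the rise with age in any nucleus.

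Averaged over the ages, Hcn2 in MNTB differed from LSO by 0.030 (95% confidence interval -0.31 to 0.37) and from VCN by 0.088 (-0.25 to 0.42). VCN differed from LSO by -0.058 (-0.39 to 0.28). The intervals reach up to 0.42 log2 units, so the nuclei were not shown to be alike in Hcn2.

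Hcn3 was ordered MNTB, LSO and VCN, from high to low, at both ages. An order shared by both ages was seen in 20.0% of the genes tested, and this particular order in 3.90%. The step from VCN to MNTB was 0.75 at P3 and 0.17 at P14, with a fitted difference of 0.46 (95% confidence interval -0.0046 to 0.93; limma, adjusted p = 0.532). MNTB minus LSO was 0.20 (-0.27 to 0.66) and VCN minus LSO was -0.27 (-0.73 to 0.20). No neighbours in this order differed beyond the spread, and the difference between the ages in the step could not be tested with 1 array per combination.

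**Figure D3:**
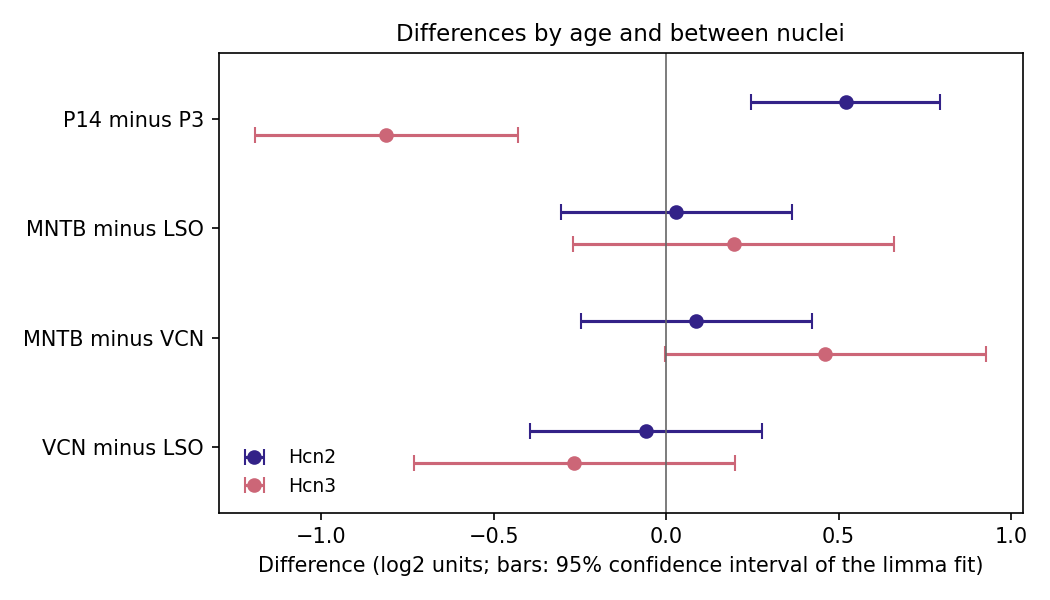
Fitted differences of Hcn2 and Hcn3 (log2 units) by age and between nuclei, with 95% confidence intervals of the limma fit over the 6 arrays. The intervals of both age differences exclude 0 (0.25 to 0.79 for Hcn2 and -1.19 to -0.43 for Hcn3), and those of all 6 differences between nuclei include it.

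Nucleus markers set VCN and MNTB apart, but none of the 6 listed was highest in LSO. All 4 tested passed for MNTB against VCN, 1 for VCN against LSO and 0 for MNTB against LSO (limma). Of all genes tested, 0.602%, 0.37% and 0.162% passed in these comparisons. The bushy cell transcription factor gene Atoh7 read 9.46 and 11.1 in VCN at P3 and P14 against 5.92 to 7.93 in the other nuclei. The glycine transporter gene Slc6a5 was highest in MNTB, at 12.5 and 13.0, and the transcription factor gene En1 read 3.21 and 2.93 in VCN, within the control range, against 5.82 to 7.10 elsewhere. The 8 listed genes of cerebellar granule and Purkinje cells had a summed level of 13.3 to 13.7 log2 units in VCN against 10.7 to 11.6 in LSO and MNTB. Granule lineage genes such as Zic1 (12.5 and 11.8 in VCN against 6.14 to 8.69) were higher in VCN, but the Purkinje cell genes were not: at both ages Calb1 was highest in MNTB and Pcp2 in LSO. The 5 choroid plexus genes summed to 9.75 in VCN at P3 and 12.6 in VCN at P14, against 7.55 to 7.86 on the other arrays. Of these, Ttr read 12.6 in VCN at P14 and 6.61 to 6.93 elsewhere, Otx2 read 9.34 and 6.52 in VCN at P3 and P14 and 3.04 to 3.34 elsewhere, and Kl read 4.62 to 4.98 on all 6 arrays. VCN had the lowest Hcn3 values, and the part of these cells in that order was not tested.

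Markers of several cell types moved with age beside the 2 channel genes. As these are whole-tissue samples, fewer cells of a type and less RNA per cell cannot be told apart. Beside the 23.4% of all tested genes that rose and the 17.7% that fell, 2 of 12 neuronal genes rose and 6 fell (limma, median difference -0.31), and their signals, summed per array, came to 15.7 to 15.9 (log2) for P3 and 15.5 to 15.7 for P14. Among them Snap25, a synaptic membrane fusion protein, rose by 0.28, while the nuclear protein gene Rbfox3 had a difference of -1.12.

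Glial and vascular markers were mostly higher at P14, and their counts too stand beside 23.4% risers and 17.7% fallers among all tested genes. All 11 tested genes of myelin and oligodendrocytes rose, with a median of 3.12, and their summed level went from 13.2 to 14.4 at P3 to 15.9 to 16.0 at P14. Oligodendrocyte precursors were represented by 6 genes, of which 4 rose and 1 fell, and astrocytes by 8, of which 5 rose and 2 fell. Microglial genes rose in 4 of 6 cases and endothelial and pericyte genes in 4 of 6. Without either LSO array these counts of rises were 2 for precursors, 2 for microglia and 1 for endothelium and pericytes. In each of these marker lists no gene lay within the control range on all 6 arrays. Pool size went with age too, as did the excess of the 3' over the 5' Gapdh signal, which tracks RNA integrity (1.21 to 1.41 for P3, 1.06 to 1.11 for P14). The part of any of these in the Hcn2 rise and the Hcn3 fall was not tested.

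Among proteins that bind or regulate HCN channels, 2 of 12 tested genes rose and 3 fell with age (limma), and the median difference was 0.0023. The share past the test, 41.7%, was close to the 41% of all genes tested. Of 18 listed genes 14 had a probe set of their own.

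Pex5l, the gene of the brain auxiliary subunit TRIP8b, which binds HCN channels and controls their trafficking and their response to cyclic AMP, rose the most. It read 7.79 for VCN, 7.33 for LSO and 7.42 for MNTB at P3, and 9.14, 9.25 and 8.83 at P14. The ages stood well apart in every nucleus, and the fitted rise was 1.56 (standard error 0.15; limma, adjusted p = 0.000982). Its 4 probe sets disagreed, with differences from -0.76 to 1.97, of which 2 passed as higher and 1 as lower. The median of its probe sets gave 0.55 (adjusted p = 0.00865).

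Cav1, the gene of caveolin-1, a scaffold of membrane caveolae, rose by 0.88 (limma, adjusted p = 0.0147). That call was lost without either LSO array (0.0678 and 0.0687) and without nucleus in the model (0.106). The 3 genes that fell were Flna (filamin A, an actin cross-linking protein), Src (a tyrosine kinase) and Nedd4l (a ubiquitin ligase of membrane channels), with differences of -1.01, -0.91 and -0.90. Of 5 tested probe sets of Nedd4l 4 passed as lower, and of 2 for Src 1 did. The repressor gene Rest, known to act on neuronal channel genes, had a difference of 0.096 and did not pass (adjusted p = 0.573).

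Enzymes that make, degrade or relay cyclic nucleotides, the ligands of HCN channels, moved both ways. Of 31 tested genes 8 rose and 9 fell (limma), with a median of -0.063 against 0.032 over all genes tested. The share past the test was 54.8%, against 41% of all genes tested. The number that rose was 4 without either MNTB array and 5 when each gene was given its median probe set value.

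Among adenylyl cyclases, which make cyclic AMP, Adcy1, activated by calcium and calmodulin, read 10.7 for VCN, 10.3 for LSO and 10.6 for MNTB at P3, and 9.49, 8.61 and 8.79 at P14. The fitted difference was -1.54 (standard error 0.14; limma, adjusted p = 0.000901), and both of its probe sets passed as lower. Adcy7 had a difference of -1.13 (-0.72 as the median over 3 probe sets), while Adcy6, which calcium inhibits, rose by 0.61.

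Phosphodiesterases, which break cyclic nucleotides down, were divided as well. Pde8a, specific for cyclic AMP, read 6.98 for VCN, 7.36 for LSO and 7.20 for MNTB at P3, and 8.88, 8.88 and 8.85 at P14. It rose by 1.69 (standard error 0.12; limma, adjusted p = 0.000565), the largest rise of this list, and Pde4b, also specific for cyclic AMP, rose by 0.74. Pde10a and Pde1b, which accept both cyclic AMP and cyclic GMP, had differences of -1.12 (-0.64 as the median over probe sets) and -0.82. Gucy1a1, a subunit of the guanylyl cyclase that nitric oxide activates, rose by 0.58, a call that was lost without either MNTB array (adjusted p = 0.0505 and 0.0516).

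**Figure D4:**
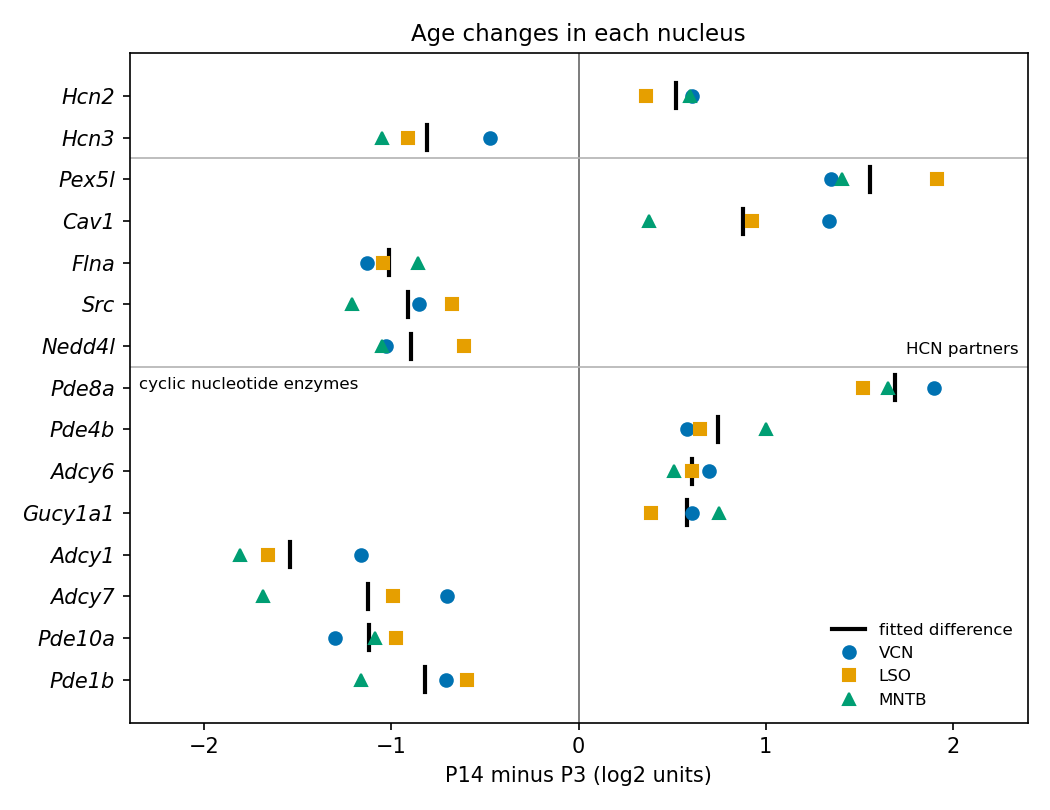
P14 minus P3 differences (log2 units) in VCN, LSO and MNTB for Hcn2, Hcn3 and the named HCN partners and cyclic nucleotide enzymes, with a black bar at the fitted difference. Every gene shown has the same sign in the 3 nuclei, from -1.54 for Adcy1 to 1.69 for Pde8a. The partners and enzymes were chosen for passing the age test, which favours a shared sign.

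Between nuclei, limma called none of the 12 partner genes and none of the 31 enzyme genes. At an unadjusted p under 0.05 there were 2 partner genes for MNTB against LSO, 2 for MNTB against VCN and 0 for VCN against LSO. For the enzymes the numbers were 8, 7 and 8. Over all 12958 genes tested they were 881, 1235 and 1163, in the same order of contrasts.

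The genes most like each member were found by Pearson's r of the log2 values over the 6 arrays, which fall into 2 ages of 3 arrays each. The closest to Hcn2 were Ninj1 (r = 0.999), Timm17a (0.999) and Tmco1 (0.999), which rose by 0.69, 0.81 and 0.74. Ninj1 encodes a plasma membrane adhesion protein and Timm17a a subunit of a mitochondrial import complex. Such likeness was common, since 873 of 12957 genes compared (6.74%) had an r of at least 0.95 with Hcn2.

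For Hcn3 the closest were Cdk6 (r = 0.991), a cell cycle kinase gene, the ribosomal protein gene Rpl19 (0.990) and the splicing factor gene Phf5a (0.988), and 113 genes (0.872%) reached 0.95. Cdk6 read 6.81 for VCN, 7.41 for LSO and 8.05 for MNTB at P3, and 6.18, 6.36 and 6.41 at P14. It shared with Hcn3 the order MNTB, LSO and VCN at both ages, which its choice by r favours. Its fitted difference was -1.10 (limma, adjusted p = 0.00861). Rpl19 and Phf5a had this order at P3 but not at P14. Their differences were smaller in size, at -0.12 and -0.21, and did not pass (limma, adjusted p = 0.137 and 0.0947). Hcn2 and Hcn3 themselves had an r of -0.77 over the 6 arrays.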

How the data were processed

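Affymetrix mouse expression arrays were hybridised with amplified RNA from 6 tissue pools. The deposited log2 values were made by the authors with RMA, as the submitters' processing notes state without a version. RMA normalizes between arrays, so a change shared by most genes is not measured, and the number of arrays limits the precision. The platform annotation names 1 gene for 34945 probe sets. For 18194 genes the probe set with the highest mean stood for the gene, and sets of the _x_at type served only where no other was present. Genes with a mean of at least the 40th percentile of all probe sets (5.57) were tested, 12958 in all; Hcn3 had a mean of 6.02 and Hcn2 of 8.41.

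limma 3.58.1 in R 4.3.3 was fitted with age and nucleus as additive terms, an intensity trend, 2 residual and 3.95 prior degrees of freedom, two-sided tests and Benjamini-Hochberg adjustment over all tested genes at 0.05. The steps were tested on simulated data. Lists are described by counts and medians without a test of their own. Named list genes are the up to 4 largest changes in each direction past the threshold, and 3 most alike genes per member. Rest, Snap25, Rbfox3 and the other markers were chosen from the lists after their values were seen. The members and lists were chosen with earlier results of these data known. Scan dates were not used here, so no batch was tested.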

Additional observations from a re-analysis of the deposited data

Results flagged for a closer look

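The order of the nuclei changed sign between the ages for Hcn2. MNTB minus LSO was -0.089 log2 units at P3 and 0.15 at P14, and VCN minus LSO was -0.18 at P3 and 0.066 at P14. Each value compares 1 array with 1 array, so the difference between the ages was not tested. The differences between nuclei of Hcn3 had the same sign at both ages. The age differences of Hcn2, Hcn3 and the 13 named partners and enzymes had the same sign in all 3 nuclei. These 13 were chosen for passing the age test, which favours a shared sign. No group held enough arrays for a search for outlying samples.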

How the results depend on the processing

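The age differences of Hcn2 and Hcn3 kept their call under 8 other settings. These changed the filter, the summary of probe sets, the scaling, the floor, the intensity trend or the nucleus term. Hcn2 ranged from 0.44 to 0.54 (limma, adjusted p = 0.00619 to 0.0253) and Hcn3 from -0.81 to -0.76 (0.00769 to 0.0171). With 1 probe set per gene, values above the floor and both ages in each nucleus, only the scalings could change size or direction. The other settings could change only the adjusted p. Centring on the median of the tested genes, chosen after seeing the data, gave 0.43 and -0.90, and turned VCN minus LSO of Hcn2 from -0.058 to 0.00012.

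With 1 array left out in turn, the age difference ranged from 0.48 to 0.60 for Hcn2, called in 4 of 6 fits, and from -0.98 to -0.69 for Hcn3, called in 2 of 6. Of the differences between nuclei, Hcn2 ranged from -0.092 to 0.15 for MNTB minus LSO and from -0.18 to 0.063 for VCN minus LSO. Hcn3 ranged from 0.017 to 0.37 for MNTB minus LSO, from 0.21 to 0.71 for MNTB minus VCN and from -0.52 to -0.013 for VCN minus LSO. None of these was called. The number of genes called ranged from 3142 to 4710 for age, from 4 to 99 for MNTB against LSO, from 17 to 215 for MNTB against VCN and from 4 to 159 for VCN against LSO. Without age in the model the last 3 counts were 1, 0 and 1. At that setting limma had no term for the main source of variation. Cyclic nucleotide enzymes that rose numbered 4 to 7 with 1 array left out and 5 with the median of probe sets, and partners that rose 1 to 2, and 1 without the nucleus term. With median probe sets Pde4b was under the filter. With 1 array left out each fit had 1 residual degree of freedom and 1 nucleus had a single array. That nucleus then added nothing to the age difference. The 2 fits that left out an array of the same nucleus therefore gave the same age difference and were not separate checks. The nucleus term pairs the age comparison by nucleus, and the labels give no replicate numbers for any other pairing.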
